A study of Mus musculus with 4 samples.

Results

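The NRF2 and glutathione supply genes described here are 10 genes of the mouse liver, namely *Nfe2l2*, *Keap1*, *Slc7a11*, *Gclc*, *Gclm*, *Gsr*, *G6pdx*, *Srxn1*, *Nqo1* and *Ephx1*. They were taken by symbol from the 35739 genes of the deposited table of Salmon abundances (TPM, a transcript's share of all transcripts, scaled to a fixed total per library), in which all 10 had a row. Whole liver RNA was sequenced from young adult WT mice (replicates 2 and 3) and from littermates without a functional *Usp21* gene (*Usp21* KO, replicates 1 and 3), with 1 library per mouse. The KO allele lacks exons 3 and 4 in every tissue after excision by Cre recombinase, the colony was of mixed inbred background, and all mice ate a normal diet. The comparison asks which liver transcripts differ when the deubiquitylase USP21 is lost.

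NRF2, encoded by *Nfe2l2*, is the transcription factor that switches on genes against oxidants and reactive chemicals. KEAP1 holds NRF2 in the cytoplasm and hands it to a CUL3 ubiquitin ligase for destruction, until oxidants or electrophiles modify cysteines of KEAP1 and NRF2 accumulates, pairs with a small MAF protein and binds antioxidant response elements. Much of this control acts on protein stability, which RNA does not measure. The target genes share out the work of making and recycling glutathione, supplying NADPH, and reducing or hydrolysing reactive compounds, and the liver makes glutathione for itself and for export.

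TPM values are corrected for transcript length, so levels of different genes can be set side by side, but they keep no record of sequencing depth. A second deposited table, of counted reads scaled by the authors, held only 102898 to 148164 recovered reads per library and between 0 and 1 read in total for each of the 10 genes, so it cannot be used to compare them between genotypes. Transcripts of *Usp21*, which lacks only exons 3 and 4 in the KO mice, stood at 4.07 and 6.29 TPM in WT livers against 1.64 and 2.93 TPM in KO livers. The hepatocyte marker *Alb* stood at 27475 to 43181 TPM. Summed over marker lists, bile duct (cholangiocyte) markers had 14.6 and 15.9 TPM in WT livers against 37.9 and 24.5 TPM in KO livers, and stellate cell and fibroblast markers had 54.6 and 45.5 TPM in WT livers against 84.1 and 63.4 TPM in KO livers. The bile duct sum was mostly 1 gene, *Spp1*, with 13.2 and 12.7 TPM in WT livers against 33.4 and 20.7 TPM in KO livers, and the other 4 bile duct markers lay between 0 and 2.41 TPM. Most of the stellate cell and fibroblast sum was *Dcn*, with 42.6 and 34.1 TPM in WT livers against 62.8 and 48.4 TPM in KO livers. *Reln* was also higher in both KO libraries, and *Lrat*, *Des*, *Col1a1* and *Col3a1* overlapped between genotypes. Both sums were higher in both KO libraries, their part in the results below was not tested, and no marker of either list was at 0 in all 4 libraries. Lymphocyte and neutrophil markers reached 43.1 TPM in WT replicate 3, with 3.04 to 5.79 TPM in the other libraries. The sums of Kupffer cell (51.6 to 135 TPM), sinusoidal endothelial (43.3 to 67.0 TPM), red blood cell (719 to 911 TPM) and hepatocyte markers (43386 to 64327 TPM) overlapped between genotypes. Single hepatocyte markers went both ways. *Alb* was lower in both KO libraries. *Hnf4a* (112 and 105 TPM in WT, 171 and 155 TPM in KO) and *Tat* (278 and 458 TPM in WT, 543 and 705 TPM in KO) were higher in both. *Apoa1*, *Ttr* and *Cps1* overlapped. In whole tissue, fewer cells of a type and less RNA per cell cannot be told apart.

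The element through which NRF2 acts has the core TGACNNNGC, where N is any base. The core was searched on both strands in RefSeq promoters of GRCm38.p6, each running from 250 bases before to 50 bases after the annotated start of transcription. Of the 10 genes, 8 had a promoter in that table (*Gclc* and *Gsr* did not), and 4 of these 8 held the core, compared with 12.4% of all 32851 promoters. The 4 matches are shown with their neighbouring bases, 5′ to 3′ on the strand of the core, because they show where the letters of the motif lie in genes whose levels follow. Capitals mark the core.
*Nfe2l2*, chr2:75704885-75704913, reverse strand: tcagcccaccTGACTCCGCcatgccccgg
*Gclm*, chr3:122245413-122245441, reverse strand: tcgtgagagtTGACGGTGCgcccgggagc
*G6pdx*, chrX:74428919-74428947, forward strand: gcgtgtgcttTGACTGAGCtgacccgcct
*Srxn1*, chr2:152105542-152105570, reverse strand: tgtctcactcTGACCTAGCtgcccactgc
Counted along the gene from its start at position 0, the core begins at -240 in *Nfe2l2*, -134 in *Gclm*, -57 in *G6pdx* and 28 in *Srxn1*. The windows of *Keap1*, *Slc7a11*, *Nqo1* and *Ephx1* held no match to these letters. A match is not a measured binding site, and elements farther from the start were outside the windows.

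The 10 genes spanned a wide range of levels in the liver. By mean TPM over the 4 libraries the order was *Ephx1* (250.4 TPM), *Gclm* (84.5), *Gclc* (84.2), *Gsr* (27.3), *Nfe2l2* (15.0), *Keap1* (14.3), *Srxn1* (12.1), *Nqo1* (3.07) and *G6pdx* (0.882). The ranges of neighbours in this order overlapped for *Gclm* with *Gclc* and for *Nfe2l2* with *Keap1*. *Nqo1* and *G6pdx* met almost exactly, since the lowest *Nqo1* library (1.08434 TPM) was level with the highest *G6pdx* library (1.08397 TPM). The other neighbours were apart in all 4 libraries. *Slc7a11* was listed at 0 in every library.

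**Figure D1:**
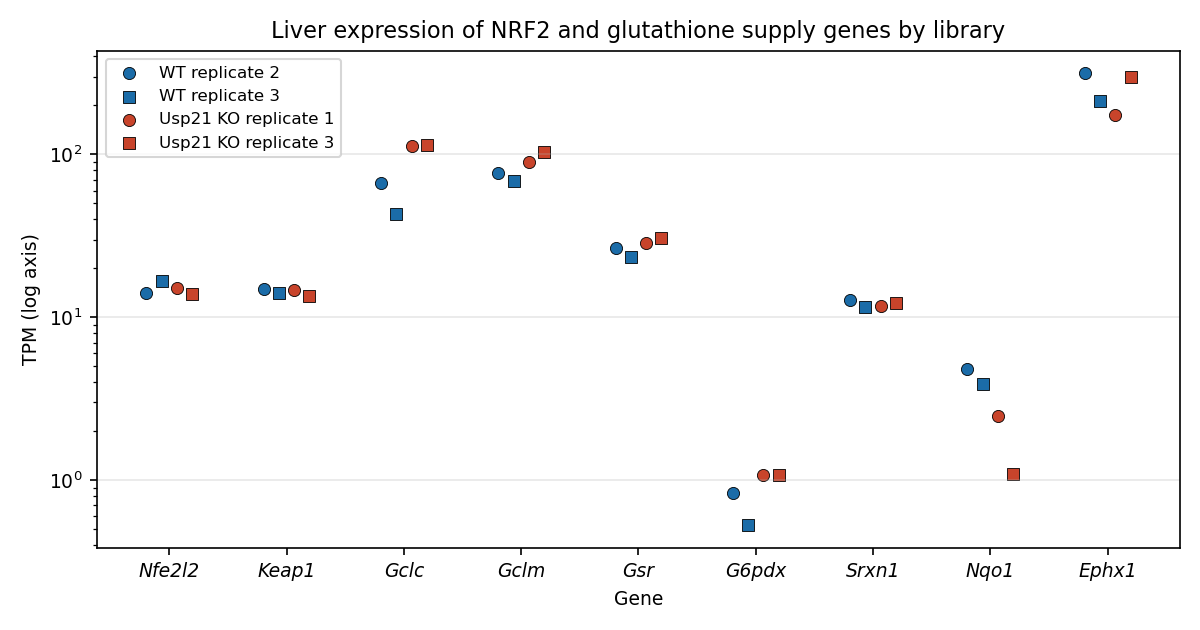
TPM (log axis) of 9 genes in each of the 4 libraries, with blue symbols for WT replicates 2 and 3 and red symbols for *Usp21* KO replicates 1 and 3. *Slc7a11*, listed at 0, is not drawn. *Gclc* sits at 113 and 114 TPM in KO and at 67.0 and 43.0 TPM in WT, while the 4 *Nqo1* points descend from 4.84 TPM in a WT library to 1.08 TPM in a KO library.

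Differences between genotypes were tested with limma on log2(TPM + 1), two-sided, over 9581 genes whose mean reached 1 TPM, and p-values were adjusted over all of these by Benjamini-Hochberg. Among the 10 genes, 8 passed this filter, *G6pdx* (mean 0.882 TPM) was fitted without it, and *Slc7a11* could not be fitted. An adjusted p under 0.05 was found in limma for 0 of the 9 genes with values, against 0.0835% of all tested genes, while 2 of them, *Gclc* and *Nqo1*, had an unadjusted p under 0.05, against 10.5% of all tested genes. The adjusted p of the 9 genes lay between 0.450 and 0.984. On the recovered reads, the quasi-likelihood test of edgeR and, separately, DESeq2 gave 0 genes with an adjusted p under 0.05, and 0 with an unadjusted p under 0.05, among the 5 genes that had a read there. Each of these 5 genes had 1 read over all 4 libraries, too little for either test to find a difference.

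The levels of the transcripts for NRF2 and its inhibitor overlapped between genotypes. *Nfe2l2* (ENSMUSG00000015839, chromosome 2, 75675513 to 75704641 on GRCm38, reverse strand) had 14.2 and 16.7 TPM in WT replicates 2 and 3, against 15.1 and 13.9 TPM in KO replicates 1 and 3. Both KO libraries lay within or just under the WT range, and the groups overlapped. Its log2 fold change, KO minus WT, was -0.09 with a 95% confidence interval from -0.58 to 0.41 (limma). *Keap1* (ENSMUSG00000003308, chromosome 9, 21229730 to 21239361, reverse strand) had 15.0 and 14.0 TPM in WT livers against 14.7 and 13.6 TPM in KO livers, a log2 fold change of -0.04 (interval from -0.51 to 0.43). These intervals leave room for a difference of about the size seen in *Gclm* for either gene. An antisense gene, *Gm16754*, overlaps *Keap1*, and the strand setting of the libraries was not given in the sources used here.

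For glutathione supply, *Gclc* and *Gclm* were higher in both KO livers. Together they encode glutamate-cysteine ligase, which joins glutamate to cysteine in the first and rate-limiting step of glutathione synthesis. *Gclc*, the catalytic subunit (ENSMUSG00000032350, chromosome 9, 77754535 to 77794485, forward strand), had 67.0 and 43.0 TPM in WT livers against 113 and 114 TPM in KO livers. The KO libraries were nearly equal and lay far above both WT libraries, which differed from each other. The means were 55.0 ± 17.0 TPM in WT and 113 ± 1.11 TPM in KO (SD, n = 2 per genotype). The log2 fold change of *Gclc* was 1.06, with a standard error of 0.24 and an adjusted p of 0.450 in limma (unadjusted p = 0.00556). Against the median of all tested genes, which was 0.15 higher in KO, *Gclc* was higher by 0.91. It was 1 of 8 tested genes of the group with a difference of at least 2-fold towards KO, against 2.59% of all tested genes.

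*Gclm*, the modifier subunit that raises the efficiency of the enzyme (ENSMUSG00000028124, chromosome 3, 122245557 to 122270732, forward strand), had 76.5 and 68.5 TPM in WT livers against 89.2 and 104 TPM in KO livers. Its groups did not overlap either, but its log2 fold change of 0.41 was smaller (standard error 0.17, adjusted p = 0.479 in limma, unadjusted p = 0.0614). Against the median of all tested genes, *Gclm* was higher by 0.26. Of the 31-base stretches of the *Gclm* transcripts, 5.61% also occur in transcripts of other genes, chiefly *Ppia* (3.55%), an abundant gene with a mean of 1098 TPM. The sum of both subunits was 144 and 111 TPM in WT livers against 202 and 218 TPM in KO livers.

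*Slc7a11* encodes the cystine importer xCT, and it was listed at 0 TPM in all 4 libraries. Its partner chain in the membrane, *Slc3a2*, had 14.4 to 21.4 TPM, and the enzymes that make cysteine from methionine in the liver were more abundant, with 123 to 312 TPM for *Cbs* and 303 to 661 TPM for *Cth*. *Gss*, which adds glycine in the last step of glutathione synthesis, had 32.4 to 41.0 TPM.

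Of the glutathione recycling genes, *Gsr* differed less than *Gclc* and *Gclm* did. *Gsr*, the glutathione reductase that spends NADPH to restore reduced glutathione (ENSMUSG00000031584, chromosome 8, 33652523 to 33698163, forward strand), had 26.6 and 23.6 TPM in WT livers against 28.4 and 30.7 TPM in KO livers. The KO values exceeded the WT values by a small margin. Its log2 fold change was 0.23 with an interval from -0.21 to 0.67 (limma), 0.08 above the median of all tested genes. *G6pdx*, the first enzyme of the pentose phosphate pathway and a source of NADPH (ENSMUSG00000031400, chromosome X, 74409483 to 74429194, reverse strand), had 0.836 and 0.529 TPM in WT livers against 1.08 and 1.08 TPM in KO livers. The KO libraries were again the higher ones, with a log2 fold change of 0.31 and an interval from -0.25 to 0.87 (limma without the filter). The ratio of mean TPM, KO to WT, was 1.58. The log2 fold change of *G6pdx* depended on the constant added to the TPM, and it was 0.62 with 0.1 and 0.098 with 5 in place of 1. Of its 31-base stretches, 12.6% also occur in *G6pd2*, a closely related copy listed at 0 TPM, and *Ikbkg* overlaps it on the other strand, so this low value is uncertain.

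The genes of detoxification and repair did not share a direction. *Nqo1*, a quinone reductase and a widely used readout of NRF2 activity (ENSMUSG00000003849, chromosome 8, 107388225 to 107403206, reverse strand), had 4.84 and 3.89 TPM in WT livers against 2.46 and 1.08 TPM in KO livers. The KO values were the lower ones, and they were farther from each other than the WT libraries were. The means were 4.36 ± 0.674 TPM in WT and 1.77 ± 0.976 TPM in KO (SD, n = 2 per genotype), a ratio of 0.407. The log2 fold change of *Nqo1* was -0.99, with a standard error of 0.33 and an adjusted p of 0.464 in limma (unadjusted p = 0.0263). Because *Nqo1* was low, this value depended on the constant added to the TPM, and it was -1.35 with 0.1 and -0.47 with 5 in place of 1. Without KO replicate 3, the log2 fold change of *Nqo1* was -0.62.

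*Srxn1*, sulfiredoxin, which repairs over-oxidised peroxiredoxins (ENSMUSG00000032802, chromosome 2, 152105516 to 152111376, forward strand), had 12.7 and 11.6 TPM in WT livers against 11.8 and 12.3 TPM in KO livers. The KO libraries lay inside the WT range, with a log2 fold change of -0.01 and an interval from -0.49 to 0.47 (limma). *Ephx1*, microsomal epoxide hydrolase (ENSMUSG00000038776, chromosome 1, 180976210 to 181020904, reverse strand), had 314 and 214 TPM in WT livers against 175 and 298 TPM in KO livers. The mice of each genotype differed from each other by more (0.55 on the log2 scale in WT and 0.76 in KO) than the genotypes did (-0.18, interval from -0.98 to 0.61, limma). *Ephx1* lies on the same chromosome as *Usp21*, 9.69 Mb away.

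**Figure D2:**
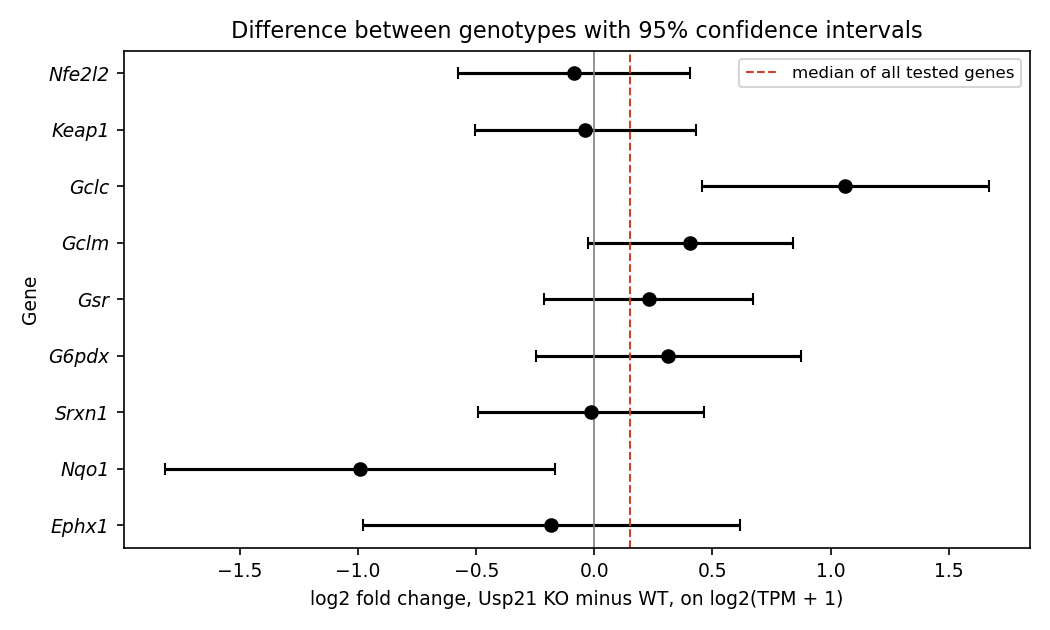
Log2 fold change (Usp21 KO minus WT, on log2(TPM + 1)) of 9 genes as points with 95% confidence intervals from limma, with a solid line at 0 and a dashed line at 0.15, the median of all tested genes. The intervals of *Gclc* (0.46 to 1.67) and *Nqo1* (-1.82 to -0.17) lie on opposite sides of 0, and the other 7 intervals include 0.

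As a group the genes did not move one way. Among the 8 tested genes, 3 (*Gclc*, *Gclm* and *Gsr*) separated with the KO libraries on top, against 34.4% of all tested genes, and 1 (*Nqo1*) separated with the KO libraries at the bottom, against 10.9%. Together these 4 genes without overlap compare with 45.3% of all tested genes. In limma, 1 of the 8 had an unadjusted p under 0.05 with a higher level in KO (background 8.45%) and 1 with a lower level (background 2.04%). Counts this small do not set the group apart from the rest of the liver transcripts. The median log2 fold change over the 9 genes with values was -0.01, compared with 0.15 over all tested genes. When the libraries were scaled to an equal upper quartile, the median of all tested genes moved from 0.15 to 0.04. *Gclc* was then higher in KO by 0.93 and *Gclm* by 0.27, and *Nqo1* was at -1.09. *Gsr* overlapped between genotypes, and *Nfe2l2* (-0.21) and *Keap1* (-0.16) no longer overlapped, with KO lower.

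**Figure D3:**
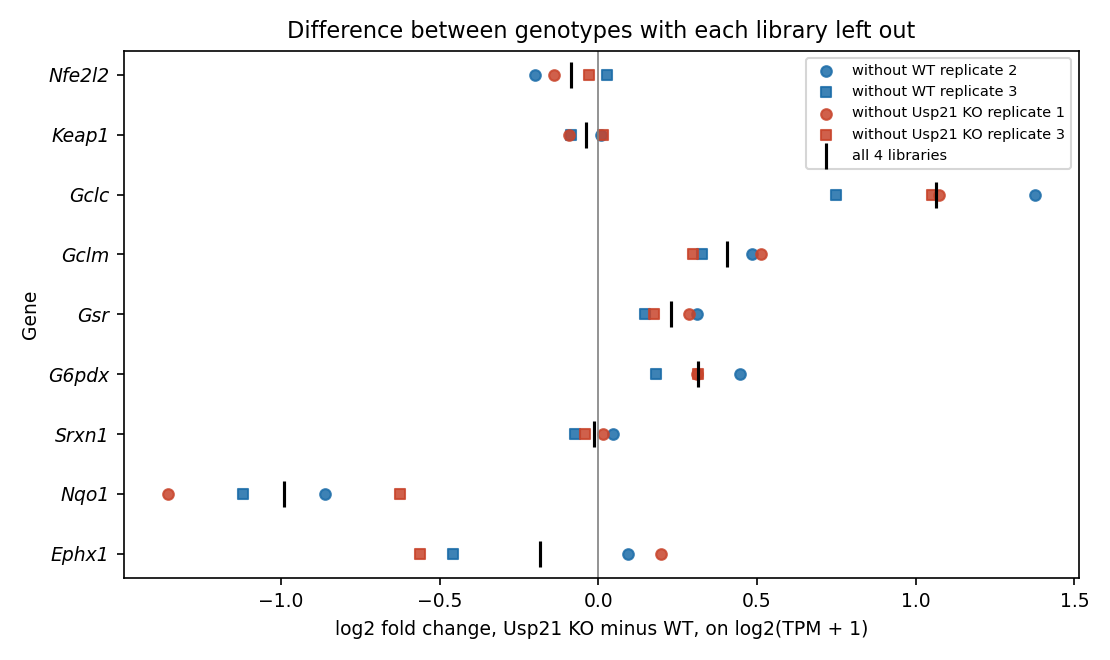
Log2 fold change (Usp21 KO minus WT) of 9 genes with all 4 libraries (black bars) and after leaving out each one (blue symbols for a WT library left out, red for a KO library). *Gclc* stays between 0.75 and 1.38 and *Nqo1* between -1.36 and -0.62, while *Nfe2l2*, *Keap1*, *Srxn1* and *Ephx1* fall on both sides of 0.

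With each library left out in turn, *Gclc* kept an unadjusted p under 0.05 in limma (0.00259 to 0.0388), and its lowest log2 fold change, 0.75, was reached without WT replicate 3. The p of *Nqo1* was 0.124 without WT replicate 2, 0.0648 without WT replicate 3, 0.10 without KO replicate 3 and 0.0108 without KO replicate 1. In these fits the single library left in a genotype was taken to vary as the other genotype did. Without the moderation of variances the unadjusted p was 0.0775 for *Gclc* and 0.125 for *Nqo1*.

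Ratios between genes of the same library do not depend on how that library was scaled. There were 0.877 and 0.628 *Gclc* transcripts per *Gclm* transcript in WT and 1.26 and 1.10 in KO. The modifier subunit was thus the more abundant transcript in both WT livers and the catalytic subunit in both KO livers, with a log2 difference of 0.67 between genotypes. The ratio of *Nqo1* to *Nfe2l2* was 0.342 and 0.232 in WT and 0.164 and 0.0781 in KO, a log2 difference of -1.32. The ratio of *Nfe2l2* to *Keap1* was 0.943 and 1.19 in WT and 1.03 and 1.02 in KO, with overlapping groups. The ratio of *Gsr* to *G6pdx* was 31.8 and 44.6 in WT and 26.2 and 28.5 in KO. For the ratios of *Gclc* to *Gclm*, *Nqo1* to *Nfe2l2* and *Gsr* to *G6pdx*, the exact two-sided permutation test gave p = 0.333, the smallest p that 2 libraries against 2 allow, and for *Nfe2l2* to *Keap1* it gave p = 1. Over the 4 ratios no p could fall under 0.05 in this design, before or after adjustment.

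**Figure D4:**
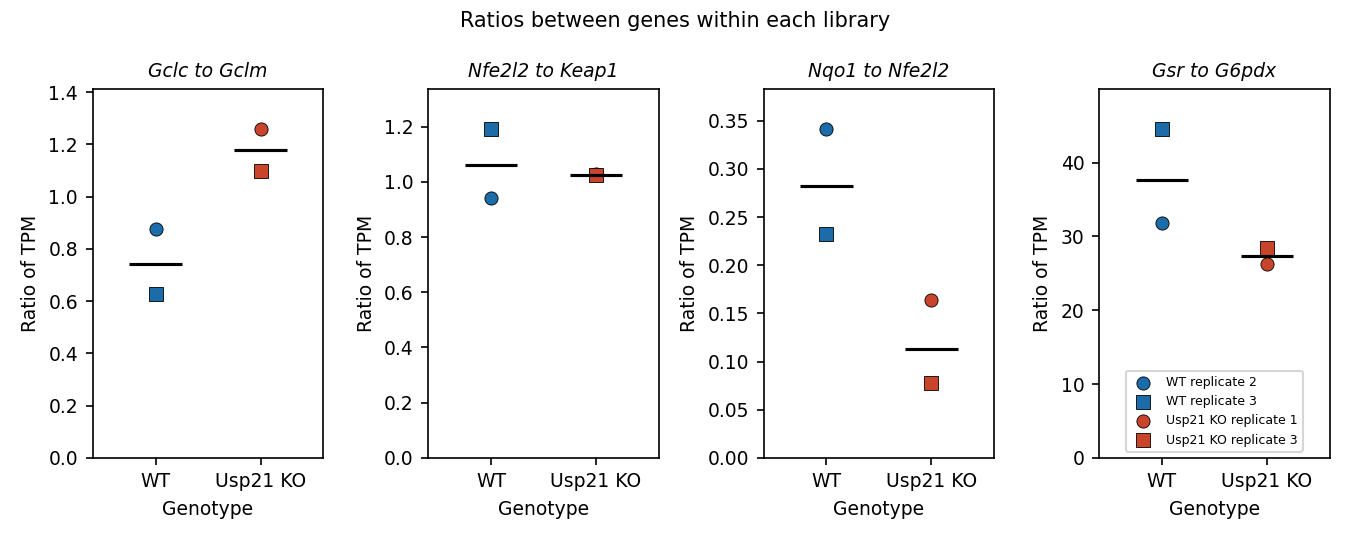
Ratio of TPM between 2 genes in each library (linear axes from 0), with WT in blue, *Usp21* KO in red and a bar at the geometric mean of each genotype. The *Gclc* to *Gclm* ratio is below 1 in both WT libraries and above 1 in both KO libraries, and the *Nqo1* to *Nfe2l2* ratio is lower in both KO libraries.

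Other genes of the pathway were described in 6 lists, of which 76 of 87 genes were tested and 0 had an adjusted p under 0.05 in limma. Of these, 6 had an unadjusted p under 0.05, 3 with a higher and 3 with a lower level in KO, against 8.45% and 2.04% of all tested genes. Among 10 partners and controllers of NRF2, 6 were higher and 4 lower in KO by their mean (66.7% of all tested genes were higher), with a median log2 fold change of 0.19. *Maff*, a small MAF protein that can pair with NRF2, had 4.22 and 4.72 TPM in WT livers against 1.64 and 1.95 TPM in KO livers. The log2 fold change, -0.97 (standard error 0.24, adjusted p = 0.464 in limma, unadjusted p = 0.00835), was the lowest of the list. *Sqstm1*, the autophagy receptor p62, which can sequester KEAP1, had 253 and 232 TPM in WT livers against 363 and 333 TPM in KO livers (a log2 fold change of 0.52). *Nfe2l1*, which encodes the related factor NRF1, was also higher in both KO livers (0.52).

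In the list of other NRF2 targets, which does not hold all of them, 11 of 23 tested genes were higher and 12 lower in KO. Of all tested genes, 66.7% were higher. The median of the list was -0.03, below the 0.15 of all tested genes. *Abcc2*, the canalicular transporter that exports glutathione conjugates into bile, had 38.3 and 42.7 TPM in WT livers against 63.8 and 54.5 TPM in KO livers (a log2 fold change of 0.53, adjusted p = 0.464 in limma, unadjusted p = 0.0266). *Txnrd1*, thioredoxin reductase, had 21.2 and 25.8 TPM in WT livers against 29.3 and 31.9 TPM in KO livers (0.37). *Slc48a1*, a heme transporter, had a log2 fold change of -0.39, without overlap between genotypes. In that list 7 genes separated with KO higher and 3 with KO lower, against 34.4% and 10.9% of all tested genes. *Hmox1*, heme oxygenase and a common readout of NRF2, had 8.10 and 15.5 TPM in WT livers against 10.4 and 13.9 TPM in KO livers, with the KO libraries inside the WT range. *Gpx2* was listed at 0.

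Of 12 tested genes of glutathione synthesis, turnover and use, 8 were higher and 4 lower (66.7% of all tested genes were higher), with a median of 0.22. *Cbs*, the entry enzyme of transsulfuration, had 213 and 123 TPM in WT livers against 312 and 216 TPM in KO livers (a log2 fold change of 0.68, unadjusted p = 0.0817 in limma). In this list 3 genes separated with KO higher and 1 with KO lower, against 34.4% and 10.9% of all tested genes. Among these, *Glrx* (glutaredoxin) was at -0.26 (interval from -0.77 to 0.25, limma) and *Oplah* (5-oxoprolinase) at 0.25 (-0.22 to 0.71). Of 10 genes of NADPH supply, 6 were higher and 4 lower (against the same 66.7%), with a median of 0.02. *H6pd*, the endoplasmic reticulum counterpart of *G6pdx*, was the more abundant by far at 61.2 to 96.6 TPM and had a log2 fold change of 0.44. *Rpe* of the pentose phosphate pathway was at 0.35 (interval from -0.14 to 0.85, limma). *Pgls*, which acts directly after *G6pdx*, was at -0.37 (interval from -0.82 to 0.08). Both intervals reach both signs, so the direction of these steps is not settled.

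Of 12 genes of the thioredoxin system and other antioxidant enzymes, 8 were higher and 4 lower (66.7% of all tested genes were higher), with a median of 0.05. *Cat*, catalase, had 975 and 798 TPM in WT livers against 1184 and 1204 TPM in KO livers (a log2 fold change of 0.44, unadjusted p = 0.0672 in limma). *Txnrd2* was at 0.31 and *Prdx6* at -0.26, without overlap between genotypes. In this list 4 genes separated with KO higher and 3 with KO lower, against 34.4% and 10.9% of all tested genes. The last list held the receptors AHR and CAR with their targets, since *Nqo1* is also known as an AHR target and *Ephx1* as a CAR target. Of its 9 tested genes, 3 were higher and 6 lower (against the same 66.7%), with a median of -0.29. *Por*, the electron donor of cytochromes P450, had 175 and 168 TPM in WT livers against 81.8 and 81.4 TPM in KO livers (a log2 fold change of -1.06, adjusted p = 0.203 in limma). The cytochrome P450 gene *Cyp2a5* was at -1.47. *Cyp2b10*, the classical CAR target, was at 0.62, but it was low (1.46 to 4.44 TPM) and its interval ran from -0.21 to 1.45 (limma).

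**Figure D5:**
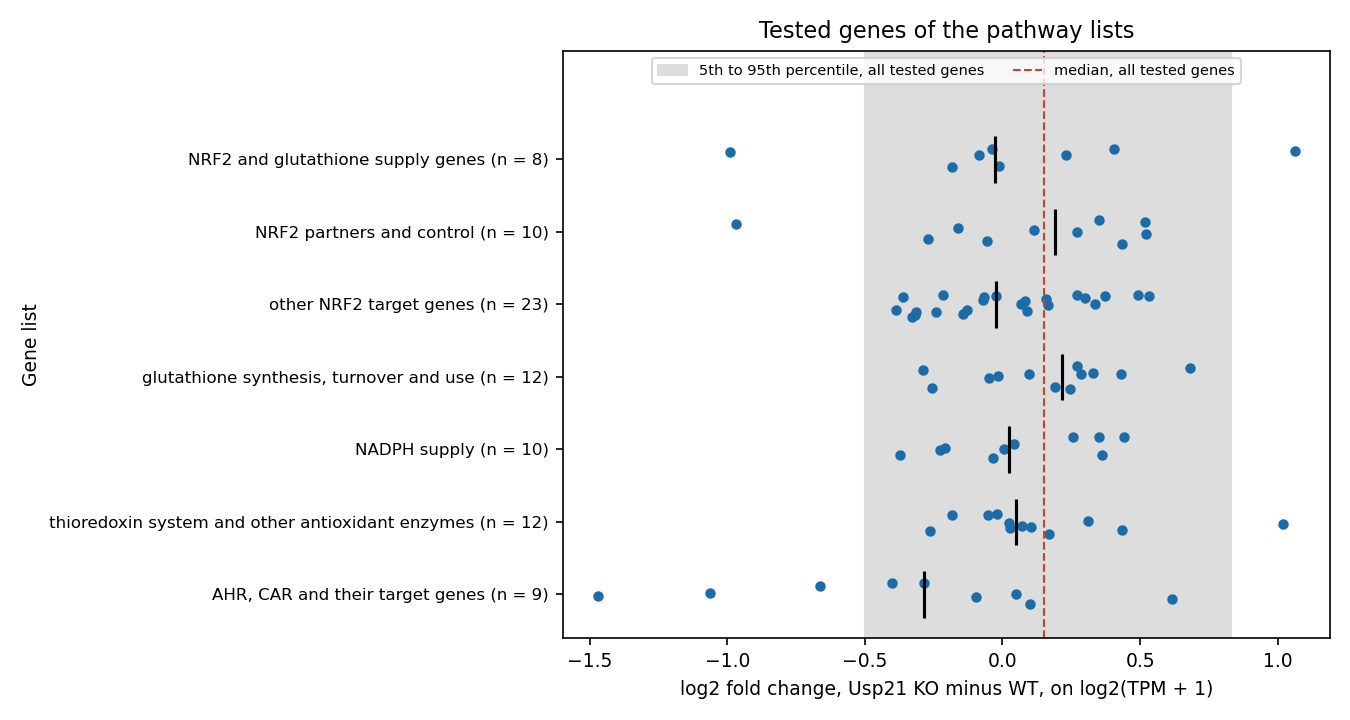
Log2 fold change (Usp21 KO minus WT) of each tested gene (points) in the NRF2 and glutathione supply group and 6 pathway lists, with the median of each list (black bar), the range from the 5th to the 95th percentile of all tested genes (grey, -0.50 to 0.83) and their median (dashed line, 0.15). *Gclc* and *Txnip* lie above the grey range, and *Nqo1*, *Maff*, *Por*, *Cyp2a5* and *Cyp2c29* lie below it.

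The profile of *Nqo1* over the 4 libraries was most like those of *Atg4d*, an autophagy protease, *Rdh16f2*, a retinol dehydrogenase, and *Prlr*, the prolactin receptor. Among 4025 genes averaging 10 TPM or more, these had the smallest distances from its centred log2(TPM + 1) values (0.12, 0.16 and 0.17). *Atg4d* had 16.4 and 15.0 TPM in WT livers against 10.1 and 5.27 TPM in KO livers, and like *Nqo1* was lowest in KO replicate 3. With 4 libraries such likeness is a description of these samples.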

How the data were processed

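Liver RNA-seq libraries were grouped by genotype from their labels, with 2 libraries per genotype, and columns were assigned by name. The authors estimated abundances with Salmon and deposited them per Ensembl gene as TPM, and as log2(TPM + 1) in a further table (log2 values, checked against the TPM and not otherwise used). The authors also counted reads with HTSeq on alignments to mm10 and deposited them after scaling by the TMM method of edgeR. This signal, deposited by the authors after TMM scaling of counted reads per gene, fell on whole multiples of 1 read in 100% of values (tolerance 0.02 reads), but listed many abundant genes at 0, so TPM was tested. Its logarithms on the log2 scale, deposited by the authors, were not used. Versions, annotation and strand setting are not given in the sources used here. Columns of per-sample values with no matching sample numbered 0.

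Genes whose mean reached 1 TPM were tested with limma 3.58.1 (lmFit, and eBayes with trend, prior degrees of freedom 3.62) on log2(TPM + 1), with no covariates. Scripts were tested on simulated data. Alternatives used other pseudocounts, filters and scalings, no moderation, the CPM signal with limma, edgeR 4.0.16 and DESeq2 1.42.0 on recovered reads, and each library left out in turn. A limma p-value sets the difference against a variance from 2 mice per genotype, moderated towards the trend over all tested genes. Coordinates and 31-base stretches came from GENCODE M21 (GRCm38, the build called mm10), and promoters from RefSeq.

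The genes of the group, the pathway lists and the tests were chosen with earlier results of these data known. Named pathway genes are *Hmox1* and *Txnrd1* and, per list, up to 3 tested genes with non-overlapping genotypes and the largest absolute log2 fold change. *Slc3a2*, *Cth*, *Gss* and *Gpx2* were named for their roles, and *Txnip*, *Cul3*, *Cyp2c29*, *Spp1* and *S100a8* after their values were seen. The same holds for the single markers of the stellate cell and hepatocyte lists other than *Alb*. *Nnt* had 2 identifiers, of which the first was used.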

Additional observations from a re-analysis of the deposited data

How the results depend on the processing

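Among the 9 genes with values, the number with an unadjusted p under 0.05 was 2. It was 1 with a mean of at least 5 TPM, which leaves out *Nqo1*, 0 without moderation of variances and 0 with the TMM-normalized CPM, and 1 to 2 with each library left out. The number with an adjusted p under 0.05 was 0 under every alternative run. Genes without overlap and lower in KO numbered 1, and 0 with a mean of at least 5 TPM, 3 with upper quartile scaling, 0 with the CPM, and 2 to 4 with each library left out, where a genotype of 1 library separates more easily. Those higher in KO numbered 4, and 3 with a mean of at least 5 TPM, 3 with upper quartile scaling, 0 with the CPM, and 4 to 5 with each library left out. Under these alternatives the share of all tested genes without overlap was not worked out. In the main fit it was 34.4% with KO higher and 10.9% with KO lower, so the counts alone do not describe this group. With the CPM, 1 read per gene was too little to show a difference in any of these counts. The median log2 fold change of -0.01 was -0.14 with upper quartile scaling, 1.47 with the CPM (5 genes with 1 read each), and 0.014 to 0.20 with each library left out.

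On the CPM table, signs turned for *Keap1* and *Srxn1* (both 1.68 in limma, 2.29 in edgeR and 1.49 in DESeq2), *Ephx1* (1.47, 2.27 and 1.26) and *G6pdx* (-1.67, -2.37 and -1.68), in each case from 1 read in 1 library. With each library left out, *Nfe2l2* ran from -0.20 to 0.028, *Keap1* from -0.092 to 0.014, *Srxn1* from -0.073 to 0.047 and *Ephx1* from -0.56 to 0.20. *Gclc*, *Gclm*, *Gsr* and *Nqo1* kept their sign under every alternative on TPM that gave a value. On the CPM table *Gclc* (1.47, 2.27 and 1.26) also rested on 1 read, and *Gclm*, *Gsr* and *Nqo1* had 0 reads. The depth behind the TPM values is unknown, which limits the low genes *Nqo1* and *G6pdx* most. No paired analysis was possible, because the labels do not say which mice were littermates or that equal replicate numbers mark pairs.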

Other observations

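Some pathway genes stood out in a single library and were named after their values were seen. *Txnip*, which binds and inhibits thioredoxin, had 41.4 TPM in KO replicate 3 and 8.25 to 9.13 TPM in the other libraries. *Cul3*, the scaffold of the ubiquitin ligase that KEAP1 recruits, had 56.9 TPM in KO replicate 1, compared with 23.9 and 28.7 TPM in WT and 19.8 TPM in KO replicate 3. *Cth*, which releases cysteine from cystathionine, had 661 TPM in KO replicate 1 and 323 TPM in KO replicate 3, with 448 and 303 TPM in WT. *S100a8*, a neutrophil gene, had 29.1 TPM in WT replicate 3 and 0.738 to 2.26 TPM in the other libraries.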
